A study of Rattus norvegicus with 48 samples.

Results

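The miR-26 family was followed in the blood plasma of rats healing a skull defect. Its members were the 3 rows of the miRNA count table named rno-miR-26a-5p, rno-miR-26b-5p and rno-miR-26b-3p, out of 645 miRNA rows in all. The rule that chose them goes by name and not by level, but earlier results of these data were known when it was set. One other row carries the family name, rno-miR-26a-3p, and it is described beside them. Small RNA was sequenced from plasma of 12 rats at 4 time points, which gave 48 samples, and levels are given as reads per 1000000 miRNA reads of the sample (RPM).

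All rats were males in which a round calvaria defect of 8 mm was drilled at an age of 12 weeks. The strain is named as Sprague-Dawley in the study's methods and as Wistar elsewhere in its text. The strong regenerators (n = 6) and the weak regenerators (n = 6) were picked by the study from a larger cohort for how much new bone microCT showed after healing. Plasma was taken from the tail vein before surgery (week 0, called baseline here) and 1, 4 and 8 weeks after it, so each rat contributed 1 sample to each time point. The cohort held empty defects, plain collagen-hydroxyapatite (CHA) scaffolds, CHA scaffolds with a plasmid for BMP2 and miR-590-5p, and CHA scaffolds with extracellular vesicles of human mesenchymal stromal cells. Treatments were spread unevenly over strong and weak regenerators, the treatment of each rat was not mapped here, and the effects of treatment and regeneration group cannot be told apart. No rats without a defect were among the samples, so time after surgery and ageing cannot be told apart either.

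A miRNA is cut from a hairpin transcript that has 2 arms, 5p and 3p, and it lowers the output of messenger RNAs that pair with its seed, bases 2 to 8. miR-26a and miR-26b are made from introns of genes for small phosphatases of the RNA polymerase tail, and both 5p strands recognise the same messenger RNA sites. In bone biology miR-26a is known from cultured stromal cells, where it acts on SMAD1 and GSK3B and has been described both to favour and to restrain osteogenic differentiation. Both 5p strands are abundant in many cell types, so plasma levels name no tissue of origin, and in plasma fewer releasing cells and less RNA released per cell cannot be told apart.

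The mature sequences are shown because the family is defined by its seed and because the 5p members are nearly the same molecule. They are RefSeq sequences on the rat build GRCr8, written 5′ to 3′ with the seed in capitals, and the last one belongs to the other row of the family.
miR-26a-5p: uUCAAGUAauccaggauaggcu
miR-26b-5p: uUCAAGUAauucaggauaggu
miR-26b-3p: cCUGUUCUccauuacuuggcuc
miR-26a-3p: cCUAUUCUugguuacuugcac
The 5p members had the seed UCAAGUA in common. Of the 645 miRNA rows, 583 had a RefSeq sequence, and among these no row other than miR-26a-5p and miR-26b-5p carried that seed. From miR-26a-5p to miR-26b-5p the substitutions were C11U and C21U, with positions counted from 1 at the 5′ end, so 19 of the 21 compared bases were the same, and miR-26a-5p had a length of 22 nt against 21 nt. Reads were assigned to miRBase entries with up to 1 mismatch, so a read of one 5p member with an error at a differing base could have been counted for the other, and this was not tested. The seed of miR-26b-3p, CUGUUCU, was carried by no other row with a sequence.

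The hairpins show how the members relate, with both mature arms in capitals. miR-26b-5p and miR-26b-3p lie on opposite arms of 1 hairpin, while miR-26a-5p comes from another chromosome.
Mir26a hairpin: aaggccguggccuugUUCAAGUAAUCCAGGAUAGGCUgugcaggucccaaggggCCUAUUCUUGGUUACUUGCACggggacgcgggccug
Mir26b hairpin: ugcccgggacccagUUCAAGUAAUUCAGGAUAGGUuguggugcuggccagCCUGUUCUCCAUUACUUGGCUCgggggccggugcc
On GRCr8 the Mir26a hairpin spans chr8:127633048-127633137 on the plus strand, within Ctdspl, and the Mir26b hairpin spans chr9:83425709-83425793 on the plus strand, within Ctdsp1. GRCr8 is not the build of the alignment, for which the study's methods name Rnor_6.0 and the submitters' processing notes list a human build, and no coordinates of either are given here.

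Each sample held between 393259 and 1586398 miRNA reads (median 796311). For every 1000 miRNA reads, the 36 samples of baseline, week 1 and week 4 had 23.3 to 60.4 reads of UniSp2, a synthetic RNA added at extraction, and the 12 samples of week 8 had 91.1 to 144. The week 8 samples thus stood apart from all others in UniSp2 before any member was looked at, and a difference in handling and the time point cannot be told apart. Of the 3 spike-ins only UniSp2 was used here, and the study describes the recovery of its spike-ins as comparable between samples. edgeR's quasi-likelihood model was fitted on all 645 rows with TMM scaling. For each contrast, p-values were adjusted by Benjamini-Hochberg (FDR) over the rows left by a filter on mean abundance, and calls were made at an FDR under 0.05.

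Both 5p members were among the abundant plasma miRNAs and both 3p strands were rare. miR-26a-5p ranked 12 of 645 by its mean of 18069 RPM, which is 1.81% of all miRNA reads, and its rank by time point was 14, 13, 17 and 10. miR-26b-5p ranked 23 of 645 with a mean of 9032 RPM, or 0.903% of the reads. miR-26b-3p ranked 329 with a mean of 7.05 RPM, and miR-26a-3p ranked 407 with 2.13 RPM. Over the 48 samples the Mir26a hairpin gave 709566 reads from its 5p arm and 85 from its 3p arm. The Mir26b hairpin gave 373687 reads from its 5p arm and 320 from its 3p arm, so the 3p arm made up 0.0856% of it, against 0.0120% for Mir26a.

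miR-26a-5p was the member that rose. It was not called different from baseline at week 1 or week 4, and at week 8 its RPM was higher in 12 of 12 rats, by a median of 1.81-fold over the rat's own baseline. The lowest, median and highest of the 12 rats were 8994, 15150 and 21766 RPM at baseline. Week 1 gave 11343, 16011 and 20710 RPM, and week 4 gave 8075, 11997 and 19722 RPM. At week 8 they were 23509, 25975 and 43129 RPM, so the lowest rat at week 8 lay above the highest at baseline, week 1 or week 4. Such a separation from baseline towards higher levels was seen in 4.19% of the 310 miRNAs with a mean of at least 10 RPM, and a rise in 12 of 12 rats was seen in 12.3% of them. From week 4 to week 8, the separation was seen in 3.23% and a rise in 12 of 12 rats in 7.74% of the 310. The means were 15321 ± 3461 (SD, n = 12), 15915 ± 2927, 13484 ± 4004 and 27557 ± 5277 RPM in order of time.

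**Figure D1:**
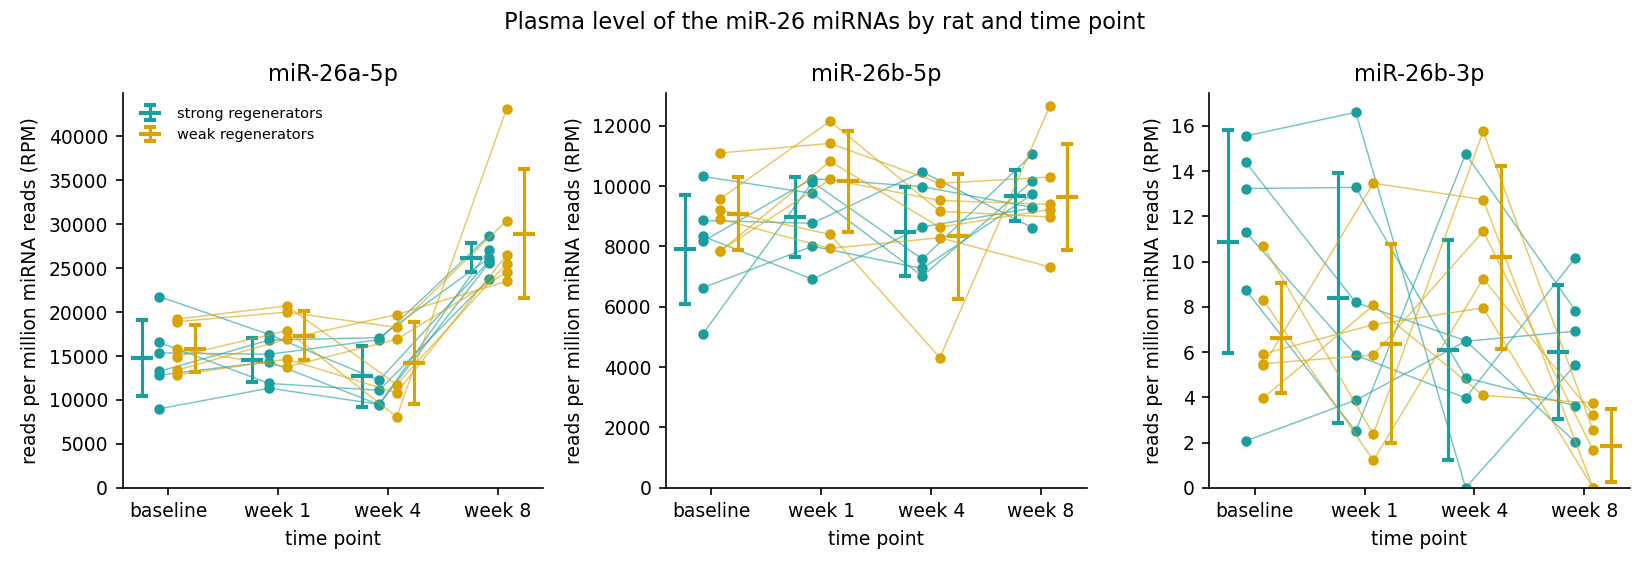
Plasma level in RPM (linear axes from 0) of miR-26a-5p, miR-26b-5p and miR-26b-3p at baseline and weeks 1, 4 and 8. Points are single rats, thin lines join the samples of 1 rat, and the horizontal marks with bars are the mean ± SD of the 6 strong or 6 weak regenerators. At week 8 all miR-26a-5p points lie between 23509 and 43129 RPM, above every earlier point, while the miR-26b-5p points of the time points overlap.

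In both regeneration groups the RPM of miR-26a-5p was highest at week 8. The strong regenerators had a lowest, median and highest level of 8994, 14310 and 21766 RPM at baseline and of 23742, 25975 and 28691 RPM at week 8. The weak regenerators had 12839, 15371 and 19206 RPM at baseline and 23509, 26002 and 43129 RPM at week 8. The 6 strong regenerators lay close together at week 8, with an SD of 1650 RPM around 26184, while at baseline their SD was 4285 RPM around 14794. Ordered by mean, the 8 combinations of group and time point ran from weak at week 8 (28929 RPM) and strong at week 8 (26184 RPM) down to weak at week 1 (17324 RPM), weak at baseline, strong at baseline, strong at week 1, weak at week 4 and strong at week 4 (12710 RPM). The step from strong at week 8 to weak at week 1 was the only one between neighbours that exceeded the larger SD of the pair and where the ranges did not overlap.

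In the edgeR quasi-likelihood test, miR-26a-5p changed by 0.16 (log2 fold change, SE 0.13, FDR = 0.426) at week 1 and by -0.11 (SE 0.13, FDR = 0.676) at week 4, neither of which was called. In the background, 20.2% of the 257 miRNAs tested at week 1 and 4.19% of the 645 tested at week 4 were called. Of the calls at week 1, 61.5% were higher, against 18.8% with scaling to library size alone and 5.08% with scaling to UniSp2. At week 8 the log2 fold change against baseline was 0.91 (SE 0.13, FDR = 5.8e-08 by edgeR), where 42.9% of 595 tested miRNAs were called and 14.8% were called higher. miR-26a-5p was in place 37 by size among the 88 called higher. Those 88 were 34.5% of the calls, and under UniSp2 scaling 0.201% of 497 calls were higher. Against week 4 it was 1.02 higher at week 8 (log2, SE 0.13, FDR = 4.7e-09 by edgeR), in place 25 of 74 called higher, with 38.2% of 557 miRNAs called and 13.3% called higher. Higher calls were 34.7% of all calls there, 48.1% with RLE factors and 0.22% under UniSp2 scaling. Between week 1 and week 4 the log2 change was -0.27 (SE 0.13, unadjusted p = 0.0436, FDR = 0.407 by edgeR), and 0.155% of 645 miRNAs were called.

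The direction of the week 8 difference depended on the scaling. Scaled to UniSp2 reads instead of to the miRNA reads, miR-26a-5p was lower at week 8 than at baseline, by -1.03 (log2, FDR = 8.2e-06 by edgeR), where the median of the 310 miRNAs with a mean of at least 10 RPM was -2.01 and was -0.13 under TMM. In reads per 1000 UniSp2 reads, miR-26a-5p had a mean of 468 ± 171 (SD, n = 12) at baseline and 232 ± 66.5 at week 8, with ranges of 277 to 820 and 176 to 412. miR-26b-5p had 257 ± 74.2 at baseline and 81.1 ± 18.7 at week 8 on that scale, with ranges of 148 to 409 and 52.6 to 121. Relative to the median miRNA, miR-26a-5p was thus higher at week 8 under each of these scalings, and per unit of UniSp2 it was lower.

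**Figure D2:**
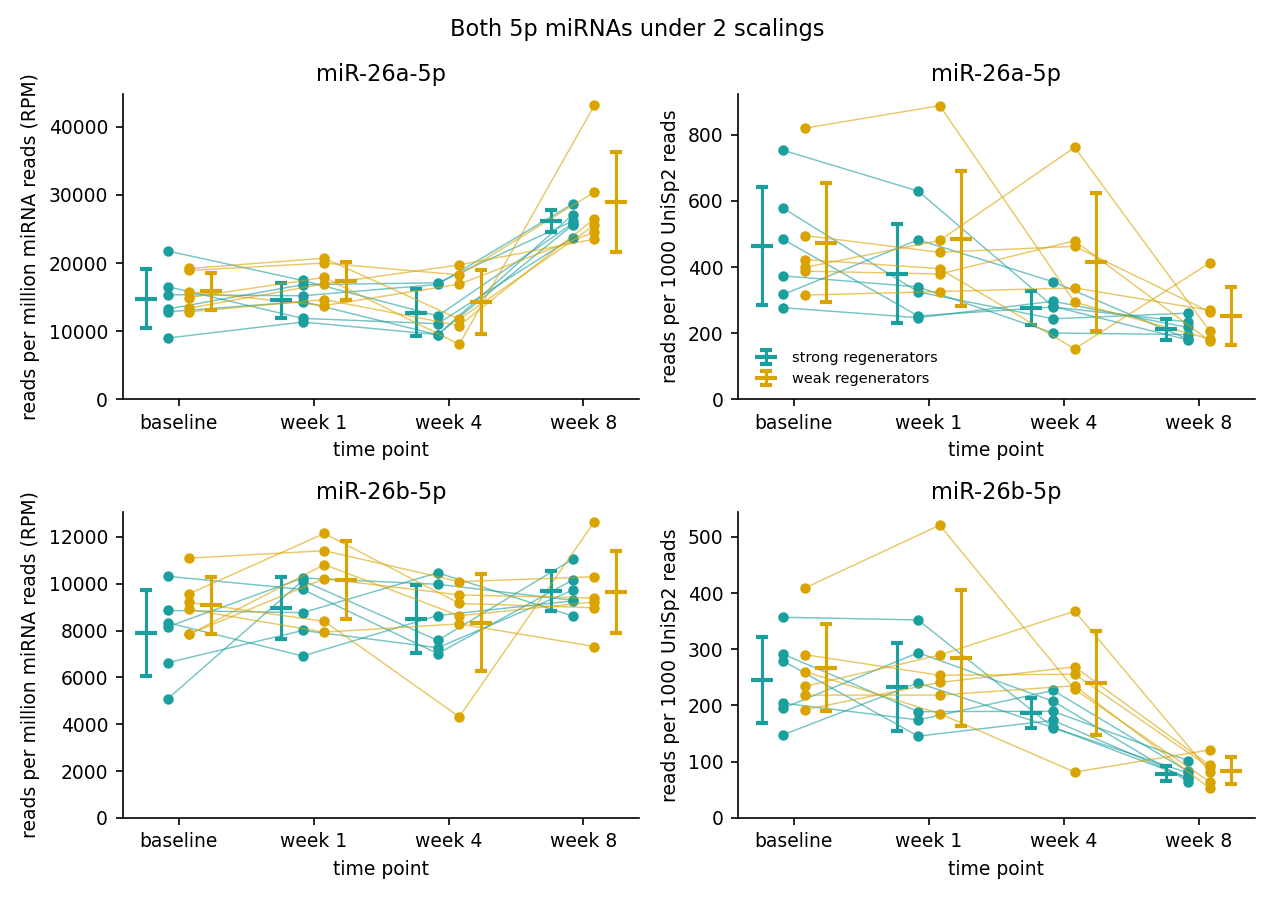
Levels of miR-26a-5p (top) and miR-26b-5p (bottom) in RPM (left) and in reads per 1000 UniSp2 reads (right), on linear axes from 0, by rat and time point, with marks and bars for the mean ± SD of 6 rats. miR-26a-5p rises at week 8 to a mean of 27557 RPM on the left and falls to a mean of 232 on the right.

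Markers of blood cells were set beside the week 8 rise, since plasma can hold their RNA. The summed level of 6 red blood cell miRNAs had a median of 261475 RPM at baseline (200449 to 303666) and 324202 RPM at week 8 (272042 to 380829), and 3 of the 6 were called higher and 1 lower, where 14.8% of the 595 tested miRNAs were called higher and 28.1% lower. The sum of the 5 platelet miRNAs found in the table, out of 6 on the list, was 92319 RPM at baseline (79666 to 100799) and 86266 RPM at week 8 (63027 to 101800), and 1 of them was called lower. The 5 leukocyte miRNAs summed to 32741 RPM at baseline (15728 to 59469) and 12468 RPM at week 8 (9162 to 20855), and 2 were called higher and 3 lower, among them miR-142-3p at 1.17 and miR-150-5p at -1.52 (log2 fold change). All blood cell markers found had a mean of at least 10 RPM, and of the 310 such miRNAs 79 were called higher and 118 lower at week 8. No marker of these lists was at 0 in all samples, and the part of blood cells in the miR-26 levels was not tested.

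miR-26b-5p, with the same seed, was not called at any time point in the main edgeR fit, which used TMM scaling and no term for the rat. Its week 8 call changed with the scaling, the filter, the model and single rats. Its lowest, median and highest levels were 5085, 8598 and 11095 RPM at baseline and 6914, 9944 and 12148 RPM at week 1. They were 4313, 8638 and 10470 RPM at week 4 and 7318, 9341 and 12649 RPM at week 8. All 4 ranges overlapped, and 7 of 12 rats were higher at week 8 than at baseline. Its SD across the 12 rats of a time point was between 1318 and 1710 RPM. None of the neighbours among the 8 combinations of group and time point, from 10154 RPM in weak regenerators at week 1 to 7898 RPM in strong regenerators at baseline, differed by more than the larger SD of the pair.

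By edgeR, miR-26b-5p was higher by 0.28 at week 1 (log2, SE 0.12, unadjusted p = 0.0189, FDR = 0.0819) and by 0.25 at week 8 (SE 0.12, unadjusted p = 0.0330, FDR = 0.0718), and neither passed the threshold. The value at week 8 had an interval of 2 SE each way from 0.02 to 0.48. The week 8 call depended on the settings. With the rat as a replicate block, which matches the pairing of samples from the same animal, the change was 0.27 (FDR = 0.0454 by edgeR). Without a term for the rat, it was 0.39 with RLE factors (FDR = 0.0047 by edgeR) and 0.25 with the filterByExpr filter (FDR = 0.0449 by edgeR). At week 4 the change was 0.08 (FDR = 0.756), and between week 4 and week 8 it was 0.17 (SE 0.12, FDR = 0.250 by edgeR). Per UniSp2 read, miR-26b-5p was lower at week 8, by -1.66 on the log2 scale.

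miR-26b-3p, the rare arm of the Mir26b hairpin, was lower in RPM at week 8 than at baseline in 11 of 12 rats. How many other miRNAs were lower in as many rats was not counted. Its count per sample was between 0 and 20 reads, and 3 samples had none, which were strong regenerator 2 at week 4 and weak regenerators 3 and 26 at week 8. A count of 0 there allows up to 5.69, 4.99 and 4.23 RPM, at a floor of 3 counts. The median number of miRNA reads per sample was 1020768 at baseline and 609384 at week 8. At week 8 miR-26b-3p had 2 to 7 reads in strong regenerators and 0 to 2 in weak regenerators, the latter all below that floor. The lowest, median and highest levels were 2.07, 8.52 and 15.6 RPM at baseline and 1.21, 6.54 and 16.6 RPM at week 1. They were 0, 7.23 and 15.7 RPM at week 4 and 0, 3.43 and 10.2 RPM at week 8, and all these ranges overlapped. Pooled over the 12 rats it had 102 reads at baseline, which is 9.03 RPM with an exact Poisson 95% interval of 7.36 to 10.96. At week 8 it had 30 reads, or 3.91 RPM (2.64 to 5.58), and these intervals cover counting error only. By group and time point its means ran from 10.9 RPM in strong regenerators at baseline to 1.87 RPM in weak regenerators at week 8, and only the last step, from 6.00 RPM in strong to 1.87 RPM in weak regenerators at week 8, exceeded the larger SD of the pair, with ranges that overlapped.

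The edgeR test gave miR-26b-3p a log2 fold change of -1.13 at week 8 against baseline (SE 0.41, FDR = 0.0238), where 28.1% of tested miRNAs were called lower, and it was in place 96 of 167 of these. Against week 4 it was -1.23 (SE 0.42, FDR = 0.0160 by edgeR), where 25% were called lower. It was lower at week 8 under UniSp2 scaling too, by -2.92. The call against baseline did not hold without any one of 5 rats, with FDR = 0.0643, 0.0516 and 0.0650 by edgeR without weak regenerator 3, 6 or 7, and 0.0794 and 0.0977 without strong regenerator 17 or 29. The call against week 4 was lost without weak regenerator 3 (FDR = 0.0591 by edgeR) or 7 (FDR = 0.0772). At week 4 the change from baseline was 0.10 (SE 0.35, FDR = 0.938), and at week 1 it was -0.13 (SE 0.37), where the filter on abundance at 21.9 RPM left it without an adjusted p.

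**Figure D3:**
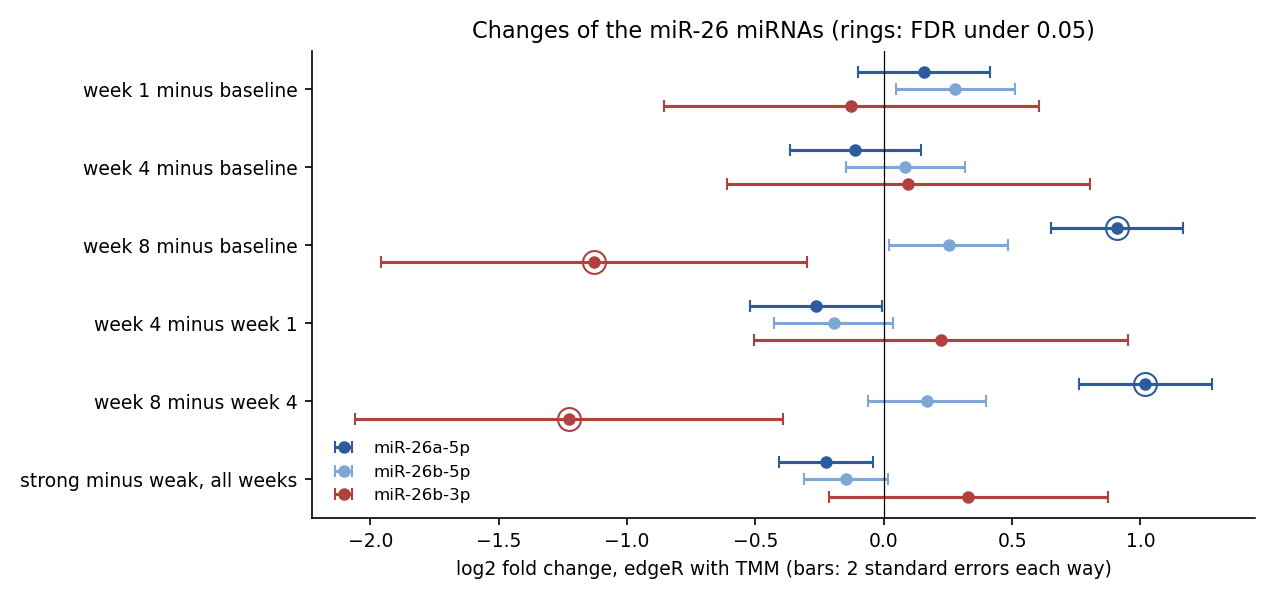
Log2 fold change of the 3 members in 6 contrasts from the edgeR fit with TMM scaling. Points are estimates, bars are 2 standard errors each way, and rings mark an FDR under 0.05. miR-26a-5p is ringed at 0.91 and 1.02 and miR-26b-3p at -1.13 and -1.23 in the contrasts of week 8, and nothing is ringed for strong against weak regenerators; under UniSp2 scaling both week 8 contrasts of miR-26a-5p are below 0.

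The ratio of miR-26a-5p to miR-26b-5p does not depend on how samples are scaled. Its lowest, median and highest values were 1.36, 1.72 and 2.52 at baseline and 1.35, 1.71 and 2.13 at week 1. They were 1.25, 1.66 and 2.07 at week 4 and 2.45, 2.83 and 3.41 at week 8. The ratio at week 8 lay above every value of weeks 1 and 4, and 1 baseline sample, of strong regenerator 29, lay within the week 8 range. From baseline to week 8 the ratio rose 1.58-fold (log2 difference 0.66, SE 0.10, higher in 11 of 12 rats, exact sign-flip permutation p = 0.000977, adjusted p = 0.00586 over 12 tests). From week 4 to week 8 it rose 1.80-fold (log2 0.85, SE 0.08, 12 of 12 rats, exact permutation p = 0.000488, the smallest that 12 rats allow, adjusted p = 0.00586). Between baseline, week 1 and week 4 the differences on the log2 scale were from -0.19 to -0.08, with exact permutation p of 0.144 to 0.263. Both rises at week 8 were larger than the SD of the log2 ratio across the 12 rats, which was 0.23 at baseline, 0.29 at week 4 and 0.17 at week 8. How often other pairs of miRNAs shifted as far was not tested.

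The ratio between the arms of the Mir26b hairpin shifted as well. Over all reads of a time point, the 3p arm made up 0.104%, 0.0807%, 0.108% and 0.0397% of the hairpin's reads in order of time. For the Mir26a hairpin this share was 0.0165%, 0.00985%, 0.0134% and 0.00895%, also lowest at week 8. It rested on 29, 17, 20 and 19 reads of its 3p arm and was not tested. Per rat, on log2(RPM + 1), the ratio of miR-26b-5p to miR-26b-3p rose 2.57-fold from baseline to week 8 (log2 1.36, SE 0.39, 11 of 12 rats, exact sign-flip permutation p = 0.00586, adjusted p = 0.0234). Between week 4 and week 8 the difference was 1.16 (SE 0.59, 9 of 12 rats, exact permutation p = 0.0718, adjusted p = 0.172), which missed the threshold. Without strong regenerator 2, whose week 4 sample had no miR-26b-3p read, the latter was 1.51 (adjusted p = 0.0381 by the exact permutation test). Leaving out 1 rat at a time gave 0.79 to 1.51 for it. Weak regenerators 3 and 26 had no such read at week 8, so their ratios there, 8976 and 12650, rest on the added 1 RPM.

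**Figure D4:**
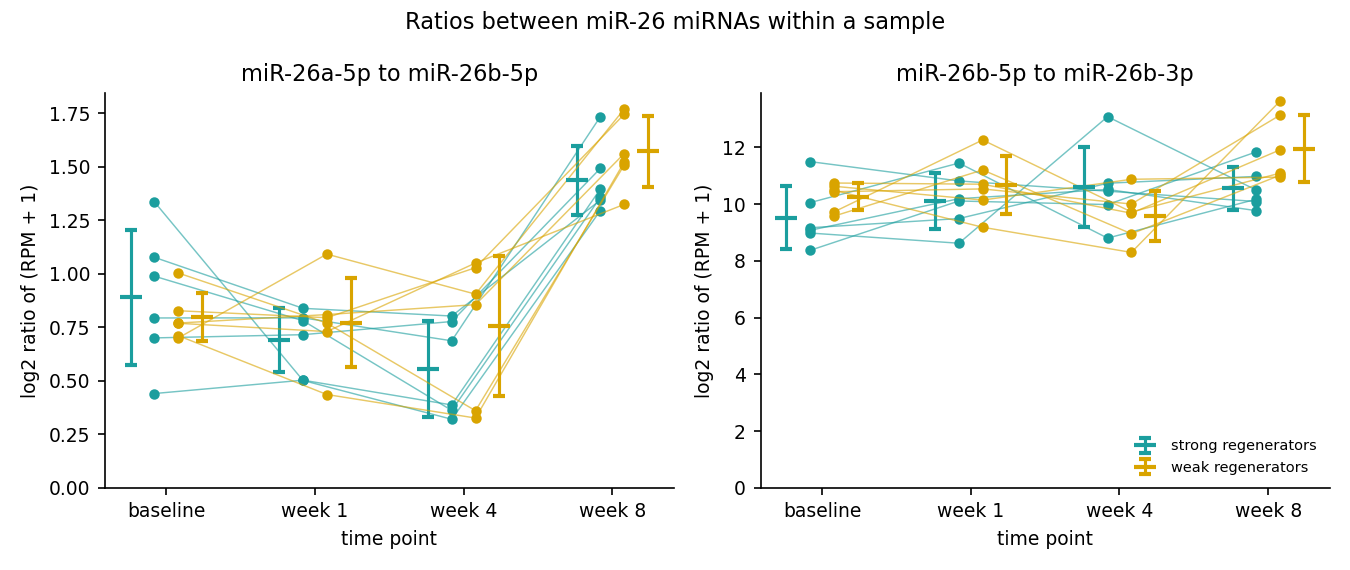
Log2 ratio of (RPM + 1) between members within each sample, for miR-26a-5p to miR-26b-5p (left) and miR-26b-5p to miR-26b-3p (right), by rat and time point, with marks and bars for the mean ± SD of 6 rats. On the left the week 8 points lie above all week 1 and week 4 points, and on the right the points are spread widely at every time point.

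Strong and weak regenerators were compared to ask whether a miR-26 level goes with the healing result. Over all weeks edgeR called none of the members and none of the 645 miRNAs (percent called 0), of which 64 had an unadjusted p under 0.05. DESeq2 and limma-voom called none either. The study itself reports a miRNA as higher and another as lower in strong regenerators over all time points, at an FDR under 0.05. Its methods also name edgeR's quasi-likelihood model. Neither is a member, and why the results differ was not tested. Leaving out 1 rat at a time gave 0 to 2 calls here. By edgeR, miR-26a-5p was -0.23 in strong minus weak regenerators (log2, SE 0.09, unadjusted p = 0.0163, FDR = 0.298), with an interval of 2 SE each way from -0.41 to -0.04. miR-26b-5p was -0.15 (SE 0.08, FDR = 0.537) and miR-26b-3p was 0.33 (SE 0.27, FDR = 0.752). The edgeR fit treats the 4 samples of a rat as independent. With 1 mean per rat, the exact permutation p was 0.223 for miR-26a-5p, 0.346 for miR-26b-5p and 0.0303, unadjusted, for miR-26b-3p (0.34 higher in strong regenerators on log2(RPM + 1), SE 0.13).

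At each time point the levels of strong and weak regenerators overlapped for every member. miR-26a-5p was lower on average in strong regenerators at all 4 time points, with log2 differences from -0.11 at baseline to -0.31 at week 1 (edgeR FDR from 0.801 to 0.962). For miR-26b-5p they ran from -0.25 to -0.02, and that at week 4 changed sign with the scaling. miR-26b-3p had a level of 2.02, 6.18 and 10.2 RPM (lowest, median, highest) in strong regenerators at week 8 and of 0, 2.11 and 3.75 RPM in weak regenerators, and pooled counts of 24 and 6 reads gave 5.69 RPM (exact Poisson 95% interval 3.64 to 8.46) and 1.74 RPM (0.638 to 3.79). In edgeR this difference was 1.55 (log2, SE 0.70, unadjusted p = 0.0300, FDR = 0.747), and 0.155% of miRNAs were called at that time point.

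Whether the course over time differed between the groups was tested by interaction contrasts in edgeR, and no member was called (percent called 0 at weeks 1, 4 and 8, with 27, 38 and 26 miRNAs at an unadjusted p under 0.05). The change of miR-26a-5p from baseline to week 8 differed by -0.16 between strong and weak regenerators (log2, SE 0.26, FDR = 1.00). For miR-26b-5p this was 0.10 (SE 0.24) and for miR-26b-3p 0.83 (SE 0.84). The change of miR-26b-3p at week 4 differed by -1.40 (SE 0.69, unadjusted p = 0.0455, FDR = 0.705 by edgeR). In 6 of 6 weak regenerators and 2 of 6 strong regenerators its RPM was higher at week 4 than at baseline. This rests on few reads, and weak regenerator 25 had 3 reads (3.98 RPM) at baseline and 2 reads (4.09 RPM) at week 4. How many other miRNAs split in this way was not counted.

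Over the 48 samples, which come from 12 rats and share their libraries and scaling, the miRNAs whose log2(RPM + 1) was most like that of miR-26a-5p were miR-34b-5p (Pearson r = 0.87), miR-181c-5p (0.83) and miR-361-3p (0.82), among 308 candidates that left out the members themselves and had a median r of -0.07. With the mean of each week subtracted, miR-34b-5p (0.67), miR-190a-5p (0.63) and miR-181c-5p (0.53) came first. For miR-26b-5p, with miR-26a-5p left out as a member, they were miR-320-3p (0.59), miR-1843a-5p (0.57) and miR-30e-3p (0.56), and miR-30e-3p (0.64), miR-365-3p (0.64) and miR-340-5p (0.59) without the week means. For miR-26b-3p they were miR-17-1-3p (0.66), miR-328a-3p (0.66) and miR-151-5p (0.65), and the same 3 miRNAs came first without the week means. miR-26a-5p and miR-26b-5p had r = 0.64 with each other over all samples. This is above the r of miR-26b-5p with any of the 308 candidates, and below the 3 highest r of miR-26a-5p. With the mean of each week subtracted, the r of the pair was 0.75, above the highest r of miR-26a-5p (0.67) and of miR-26b-5p (0.64) with any candidate. Over the 12 rats within baseline, week 1, week 4 and week 8 the pair had r = 0.75, 0.76, 0.75 and 0.70. miR-26b-3p had r = -0.36 with miR-26b-5p and -0.38 with miR-26a-5p over all samples. These values are a description of 48 samples, and the 5p pair shares nearly all of its bases.

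miR-26a-5p was set beside other miRNAs known from bone cell culture. On a list of 12 miRNAs described to promote osteogenesis, 12 were tested at week 8, and 2 were called higher and 9 lower than at baseline by edgeR, with a median log2 fold change of -0.81, where 14.8% of the 595 tested miRNAs were called higher and 28.1% lower. The 4 with the largest changes were miR-196a-5p (-1.72), miR-148a-3p (-1.04), miR-15b-5p (-1.03) and miR-29b-3p (-0.98). On a list of 23 described to restrain osteogenesis, 6 were called higher and 8 lower against the same background of 14.8% and 28.1%, with a median of -0.27 over the 19 with a mean of at least 10 RPM, and with miR-125b-5p (-2.09), miR-214-3p (-2.07), miR-30d-5p (-1.66) and miR-30b-5p (-1.16) changed most. The first list had 12 and the second 19 miRNAs at that level, where 79 of all 310 were called higher and 118 lower. These 310 had a median of -0.13, against 0.91 for miR-26a-5p and 0.25 for miR-26b-5p. These directions hold for TMM scaling, and under UniSp2 scaling nearly all calls at week 8 were lower. At week 1, where 12.5% of tested miRNAs were called higher and 7.78% lower, 1 of the first list was called higher and 1 lower, and 1 of the 19 tested of the second higher. At week 4, where 4.03% were called lower and 0.155% higher, 1 of the first list was called lower.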

How the data were processed

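Small RNA of 48 plasma samples of 12 rats was sequenced. According to the labels and the study's methods, libraries were made with a single adapter, and the authors trimmed reads with cutadapt 3.3, kept those of at least 17 nt, aligned them with bowtie 1.3.0 to Rnor_6.0 (up to 2 mismatches) and to miRBase with miRDeep2 (up to 1 mismatch). The submitters' processing notes list a human genome build instead, and the files do not settle which was used. The authors deposited raw counts for 645 miRNAs and 3 spike-ins.

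Regeneration groups were taken from the sample labels after surgery. The labels of the baseline samples gave the group as unknown, so each baseline sample was given the group of the same rat number at later weeks. RPM were computed over the miRNA reads. Counts were tested with R 4.3.3 and edgeR 4.0.16 (TMM, quasi-likelihood, an independent filter on mean abundance, Benjamini-Hochberg over all rows left, FDR under 0.05), with regeneration group or week as covariate and no term for the rat. The script was tested on simulated data. Ratios used log2(RPM + 1) and exact two-sided permutation tests over rats (scipy 1.17.1). Intervals in the text are 2 SE each way unless named otherwise.

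The labels give each rat its own number at all time points, so the numbers pair the samples. Deviations from the group mean correlated with a mean r of 0.107 in 72 same-rat pairs and of -0.00931 between different rats, and 6 of 12 rats had a mean over 0.1. Alternatives were other scalings, filters and tools (DESeq2 1.42.0, limma 3.58.1), a replicate block, and leaving out each rat or, chosen after seeing the data, the week 8 samples. The miRNAs named beside the members were the 3 most correlated with each member and up to 4 per list with the largest change at week 8. The members, lists and rules were chosen with earlier results of these data known. Bone volumes, histology and the sequencing reads were not analysed here.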

Additional observations from a re-analysis of the deposited data

Results flagged for a closer look

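Of 40 spreads tested by Dixon's rule, which chance passes in about 1 in 20 groups, 2 held a sample far from the others of its group, and both samples came from weak regenerator 26. At week 8 its miR-26a-5p level was 43129 RPM, where the other 5 weak regenerators lay between 23509 and 30401 RPM. Without this rat the week 8 log2 fold change of miR-26a-5p against baseline was 0.83 (FDR = 3.4e-07 by edgeR). At week 4 its miR-26b-5p level was 4313 RPM, where the others lay between 8286 and 10090 RPM. Without this rat miR-26b-5p was called at week 1 (0.31, FDR = 0.0482 by edgeR).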

How the results depend on the processing

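The rise of miR-26a-5p at week 8 was called under every alternative that scaled to miRNA reads and without any one rat (0.83 to 1.08 against baseline, 0.90 to 1.17 against week 4, log2). Scaling to UniSp2 reads reversed miR-26a-5p at week 1 (-0.13), week 8 (-1.03) and week 8 against week 4 (-0.56), miR-26b-5p at week 4 (-0.28), week 8 (-1.66) and week 8 against week 4 (-1.38), miR-26b-3p at week 4 (-0.27) and the group difference in the week 4 change of miR-26b-5p (-0.24). It moved the number of miRNAs called to 63 at week 4, 497 at week 8 and 455 for week 8 against week 4, from 27, 255 and 213.

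miR-26b-5p passed the threshold at week 8 with RLE factors (0.39), DESeq2 (0.39), the filterByExpr filter (0.25), only the compared weeks (0.28) and the replicate block (0.27), and against week 4 with RLE factors (0.30) and DESeq2 (0.30). The pairing by rat also gave 4 calls for week 4 against week 1, and it changed no other call of a member. For contrasts between groups over all weeks or at 1 time point, the block was fitted in limma-voom. There miR-26b-5p at week 4 was 0.025 both with and without the block, so its change of sign came with the tool. Library size alone turned the week 4 changes of miR-26b-5p (-0.0096) and miR-26b-3p (-0.0099), limma-voom that of miR-26b-3p (-0.092). The group difference of miR-26b-5p at week 4 was 0.027 with library size, 0.040 with RLE factors, 0.040 with DESeq2 and 0.025 with limma-voom, and library size gave 0.0065 at week 8 and 0.022 for its week 1 change. The calls at week 1 were 32 with library size and 21 with no filter, against 52. For week 4 against week 1, library size, RLE factors, UniSp2 and limma-voom gave 0 calls, against 1 by edgeR with TMM, where 74 miRNAs had an unadjusted p under 0.05. The exact permutation test over rats gave miR-26b-3p 0.34 between groups, with an unadjusted p = 0.0303. The causes were not tested.

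Leaving out 1 rat at a time gave 0.20 to 0.32 for miR-26b-5p at week 1, 0.22 to 0.38 at week 8 and 0.0705 to 0.34 for week 8 against week 4. For miR-26b-5p, the week 8 call was gained without weak regenerator 3, 6 or 7 or strong regenerator 5, 17 or 23, and the last one also gave the call against week 4. miR-26b-3p ranged from -0.27 to 0.0061 at week 1, -0.026 to 0.29 at week 4, -1.28 to -0.89 at week 8 and -1.39 to -0.99 for week 8 against week 4. Between groups, miR-26b-5p at week 4 ranged from -0.15 to 0.10, and its change from baseline differed by -0.11 to 0.052 at week 1 and -0.027 to 0.28 at week 8, that of miR-26a-5p by -0.18 to 0.14 at week 4 and -0.27 to 0.095 at week 8. The log2 ratio of miR-26b-5p to miR-26b-3p ranged from -0.16 to 0.41 (week 4 against baseline), 0.79 to 1.51 (week 8 against week 4) and -0.53 to -0.34 (strong minus weak, past the threshold without weak regenerator 7 or strong regenerator 21). Calls ranged from 24 to 53 at week 1, 0 to 2 for week 4 against week 1 and 0 to 2 between groups. Of all alternatives, 993 values kept direction and side of the threshold or, for numbers of miRNAs called, stayed near the main number. Another 32 numbers of calls moved further. Of the other values, 42 reversed direction, 19 passed the threshold where the main value did not, and 7 lost it. The 19 include the exact permutation test of miR-26b-3p between groups, which passed only by its unadjusted p = 0.0303.

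In the contrasts between time points and over all weeks, filterByExpr removed miR-26b-3p, so it has no value there, and its ratio has none without a pseudocount, since 3 samples had no read. Without the week 8 samples, an alternative chosen after seeing the data, the group differences were -0.19, -0.14 and 0.14 for miR-26a-5p, miR-26b-5p and miR-26b-3p. With 0 to 20 reads per sample, depth limits what can be said of miR-26b-3p.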
